A study of Mus musculus with 8 samples.

Results

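Purinergic and adenosine signaling genes were examined in tumor-associated macrophages (TAMs) of mice lacking collectin-11, a soluble pattern recognition lectin of the complement system. The set was fixed by name and held 10 of the 21051 genes listed: the ectonucleotidases Entpd1 and Nt5e, the ATP-gated channels P2rx4 and P2rx7, the nucleotide receptors P2ry6, P2ry13 and P2ry14, and the adenosine receptors Adora2a, Adora2b and Adora3. B16 melanoma cells, a mouse melanoma line, were injected subcutaneously, and CD45+F4/80+ cells were sorted from the tumors 14 days later for RNA-Seq. The 4 TAM-WT libraries came from wild-type (WT) C57BL/6 mice and the 4 TAM-KO libraries from Colec11-/- mice of the same strain, which lacked the gene in every cell type and not in macrophages alone. The methods give WT littermates as controls and young adult male mice as the default. Both groups carried the same tumor line. Each group held 4 mice, and the spread between the libraries of a group is thus taken as that between animals, although the labels only number the samples.

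ATP leaves stressed or dying cells and acts on P2X channels and P2Y receptors of nearby leukocytes. CD39, encoded by Entpd1, removes phosphates from ATP and ADP to give AMP, and CD73, encoded by Nt5e, turns AMP into adenosine. Adenosine then acts on its own receptors, of which those of Adora2a and Adora2b raise cyclic AMP and dampen inflammatory responses. Tumor tissue is known for high extracellular ATP and adenosine, and macrophages carry both the enzymes and the receptors.

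Read depth was similar across the libraries. The 7 complete libraries held 16225362 to 17280267 expected counts, whereas the table of TAM-KO replicate 1 lacked 5311 genes and held 10607640. Of the 10 genes, 3 (Nt5e, P2ry6 and P2ry13) had a value in all 8 libraries and were tested with 4 TAM-KO libraries. The other 7 were tested without TAM-KO replicate 1. Colec11 was at 0 to 4 expected counts in TAM-WT and at 1 in each TAM-KO library, so the genotype could not be checked from its RNA. Levels are given as FPKM, fragments corrected for transcript length and library size. Macrophage RNA was abundant, with the complement gene C1qa at a mean of 1795 FPKM in TAM-WT and 2100 FPKM in TAM-KO. C1qc was at 1744 and 1989 FPKM (TAM-KO replicates 2 to 4 for both genes). Within the list of 8 macrophage markers, fold changes were positive for 4 and negative for 4. Cd68 had a mean of 2075 FPKM in TAM-WT and 1518 FPKM in TAM-KO (log2 fold change -0.55, adjusted p = 0.0732). The 8 macrophage markers summed to 11690 to 14920 CPM (counts scaled to library size) in TAM-WT and 12460 to 14330 CPM in TAM-KO, and 0 of 8 passed the test. RNA of other cells was present. The 5 melanoma markers, led by Pmel and Dct, summed to 7525, 12440, 6295 and 5936 CPM in TAM-WT replicates 1 to 4. In TAM-KO they summed to 10910 to 13640 CPM (0 of 5 called, and these sums leave out TAM-KO replicate 1). Only TAM-WT replicate 2 lay in that range. The melanoma sum exceeded the macrophage sum in TAM-WT replicate 2 (12440 and 11690 CPM). It also did so in TAM-KO replicates 2 (13640 and 12710 CPM) and 3 (13280 and 12460 CPM). In the other complete libraries the macrophage sum was higher. How much of the RNA of the 10 genes came from cells other than macrophages was not tested. All 5 melanoma markers had positive log2 fold changes, from 0.49 to 0.82. With edgeR, 4 had an unadjusted p below 0.05, which held for 30.7% of all genes.

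None of the 10 genes passed the test between TAM-KO and TAM-WT. With edgeR, 0 of 10 passed a Benjamini-Hochberg adjusted p of 0.05, while 1218 of the 12412 genes tested did, which is 9.81% of them. Of these 1218 genes, 568 were higher (4.58% of all tested) and 650 lower (5.24%) in TAM-KO. On the FPKM scale in limma, with a pseudocount of 1, the split was 916 higher and 408 lower. At an unadjusted p below 0.05, 1 of the 10 genes passed, against 30.7% of all genes, and DESeq2 gave 0 adjusted and 2 unadjusted calls and limma 0 and 1. The FPKM ranges of the groups overlapped for each of the 10 genes, whereas they were separate for 18.9% of all genes. The median log2 fold change of the 10 genes was -0.02, beside 0.00 over all genes tested. The intervals set how large a difference could have gone unseen. Standard errors ran from 0.08 for P2rx4 to 0.44 for Nt5e, and that of P2ry14 (0.33) equaled that of the scarcer Adora3 (0.33). The plot of fold changes shows these intervals beside those of the rest of the pathway.

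**Figure D1:**
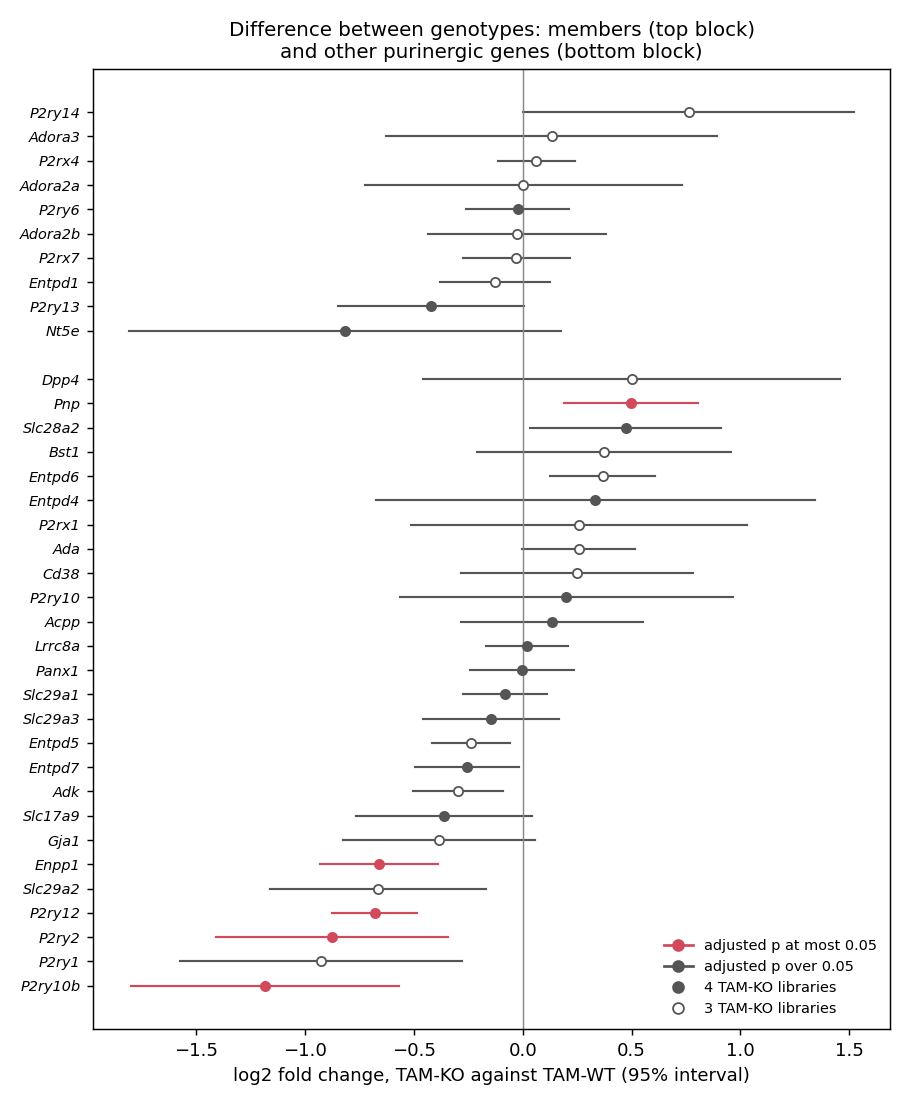
Log2 fold change of TAM-KO against TAM-WT (x axis) with its 95% interval from edgeR for the 10 genes (top block) and the 26 other purinergic genes tested (bottom block). Red marks an adjusted p of at most 0.05, and open circles mark genes tested with 3 TAM-KO libraries. The 10 genes lie between -0.82 for Nt5e and 0.76 for P2ry14 with none in red, and 5 of the other 26 are red, 4 of them to the left of 0.

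The genes fell into clear levels, and the order was largely the same in each library. Over the 7 complete libraries, P2ry6 was highest at 97.6 ± 10.8 FPKM (SD, n = 7). P2rx4 followed at 61.1 ± 5.41 FPKM, Entpd1 at 47.0 ± 4.59 FPKM and P2rx7 at 19.8 ± 2.10 FPKM. This order held in 7 of 7 libraries at each step. Then came P2ry14, P2ry13 and Adora2b at 9.36 ± 4.17, 7.88 ± 2.21 and 7.66 ± 1.11 FPKM, whose spreads overlapped. P2ry14 was above P2ry13 in 5 of 8 libraries, and P2ry13 above Adora2b in 3 of 7. The ratio of P2ry14 to P2ry13 was 0.33 to 1.3 in TAM-WT and 1.2 to 2.2 in TAM-KO, a difference that was not tested. Nt5e, Adora2a and Adora3 were lowest at 1.39 ± 0.810, 1.08 ± 0.296 and 0.907 ± 0.255 FPKM, again within each other's spread, and Adora2b was above Nt5e in 7 of 7. FPKM is per transcript length, so these levels can be set side by side.

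**Figure D2:**
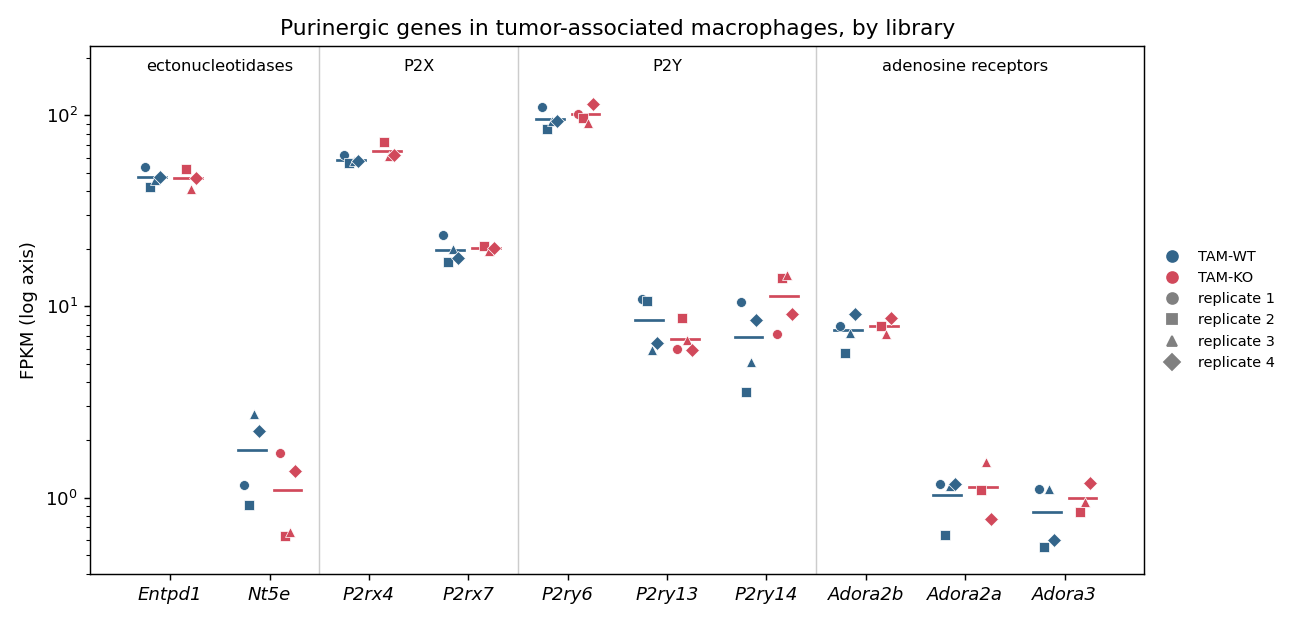
FPKM on a log axis for the 10 genes in each library, with TAM-WT in blue, TAM-KO in red, marker shapes for the replicate and a bar at each group mean. P2ry6 lies above 84 FPKM throughout, Nt5e, Adora2a and Adora3 lie below 3 FPKM, and the colors overlap for each gene.

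The enzymes of the adenosine route were very unequal in RNA, with Entpd1 far above Nt5e. The proteins CD39 and CD73 were not measured. Entpd1 (Entrez 12495, GRCm38.p6 chr19:40612366-40741602) had 53.3, 42.3, 45.6 and 47.7 FPKM in TAM-WT and 52.0, 40.9 and 47.0 FPKM in TAM-KO replicates 2 to 4. The groups covered the same range, and the log2 fold change was -0.13 ± 0.11 (SE, adjusted p = 0.474) with a 95% interval of -0.38 to 0.13. Nt5e (23959, chr9:88327609-88372089) had 1.17, 0.91, 2.74 and 2.24 FPKM in TAM-WT and 1.70, 0.63, 0.66 and 1.37 FPKM in TAM-KO. Replicates 3 and 4 of TAM-WT were highest and replicates 2 and 3 of TAM-KO lowest, with the other libraries interleaved. Its log2 fold change was -0.82 ± 0.44 (SE, adjusted p = 0.242), the interval ran from -1.81 to 0.17, and it rested on 34 to 155 expected counts per library. Within a library, Entpd1 exceeded Nt5e 16.6 to 46.5 times in TAM-WT and 34.3 to 82.5 times in TAM-KO.

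Both P2X channels were abundant, and neither passed the test. P2rx4 (18438, chr5:122707518-122729739), a channel opened by low ATP, had 61.8, 56.0, 57.2 and 57.3 FPKM in TAM-WT and 72.0, 61.5 and 62.1 FPKM in TAM-KO. The TAM-KO values were at or above most TAM-WT values in FPKM, yet the fold change fitted on counts was 0.06 ± 0.08 (log2, SE, adjusted p = 0.625; interval -0.11 to 0.24). P2rx7 (18439, chr5:122643927-122692336), which opens at high ATP and feeds the NLRP3 inflammasome, had 23.6, 17.1, 19.9 and 17.8 FPKM in TAM-WT and 20.6, 19.6 and 20.1 FPKM in TAM-KO. All TAM-KO values lay inside the TAM-WT range. The log2 fold change of P2rx7 was -0.03 ± 0.11 (SE, adjusted p = 0.878; interval -0.28 to 0.22). The genes are neighbors on chromosome 5, 15.2 kb apart. P2rx7 shares 119 of 5970 exon bases with the microRNA gene Mir8115 on the same strand. The other P2X genes were at or near 0, the highest being P2rx1 at 0.16 to 0.38 FPKM.

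The inflammasome genes listed downstream of P2X7 did not pass the test (0 of 7 with edgeR, 2 of 7 at an unadjusted p below 0.05, which held for 30.7% of all genes). Il1b, which encodes interleukin-1β, and Nlrp3, the inflammasome sensor, had the widest differences, each with a log2 fold change of -1.08 (adjusted p = 0.0829 and 0.0754). Il1b had 55.7 to 158 FPKM in TAM-WT and 41.6 to 59.99 FPKM in the 3 TAM-KO libraries tested. TAM-KO replicate 1, at 96.9 FPKM in the table of the whole series, did not enter the test. That table is the authors' list of differentially expressed genes and covers only part of the genes, Il1b among them. Leaving out TAM-WT replicate 1 brought both Il1b and Nlrp3 past the threshold, and DESeq2, the replicate block and leaving out TAM-WT replicate 2 each brought Il1b past it. Casp1, Pycard, Nek7, Gsdmd and Il18 lay between -0.08 and 0.20 on the log2 scale.

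P2ry6, the receptor for UDP, was the most abundant of the 10 genes. P2ry6 (233571, chr7:100937630-100975498) had 111, 84.6, 92.8 and 93.3 FPKM in TAM-WT and 102, 96.8, 90.8 and 114 FPKM in TAM-KO. The groups overlapped throughout, and the log2 fold change was -0.02 ± 0.11 (SE, adjusted p = 0.911) with an interval of -0.26 to 0.21.

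P2ry13 and P2ry14 lie in a cluster of nucleotide receptor genes on chromosome 3 together with P2ry12, which is not among the 10 genes but is the neighbor of P2ry13. Gpr171, P2ry14, P2ry13 and P2ry12 lie in this order on the minus strand within 166.5 kb, all inside the span of Med12l on the plus strand. P2ry14 and P2ry13 are 54.4 kb apart and P2ry13 and P2ry12 are 5.39 kb apart. P2ry13 and P2ry14 share 0 exon bases with Med12l and P2ry12 shares 9 of 2546, and Med12l had only 0.22 to 0.57 FPKM. The 250 bases before the annotated start of each receptor gene are printed because P2ry12 passed the test in TAM-KO and its neighbors on the same strand did not. They come from RefSeq (GRCm38.p6, minus strand, 5′ to 3′) at chr3:59262986-59263235 for P2ry12, chr3:59210883-59211132 for P2ry13 and chr3:59153493-59153742 for the outermost of 4 P2ry14 starts. Capitals mark a match to AGGAAGT, the letters searched for the macrophage factor PU.1.
P2ry12: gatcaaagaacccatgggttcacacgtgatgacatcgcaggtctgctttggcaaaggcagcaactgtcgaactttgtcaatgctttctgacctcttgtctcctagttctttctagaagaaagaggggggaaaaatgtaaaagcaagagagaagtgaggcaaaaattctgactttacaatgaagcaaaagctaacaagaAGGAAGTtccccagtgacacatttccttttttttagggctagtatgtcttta
P2ry13: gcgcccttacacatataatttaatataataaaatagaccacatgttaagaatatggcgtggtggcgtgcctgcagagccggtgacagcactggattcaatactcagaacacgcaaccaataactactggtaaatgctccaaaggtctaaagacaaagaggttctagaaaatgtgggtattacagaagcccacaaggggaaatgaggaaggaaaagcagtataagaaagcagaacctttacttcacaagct
P2ry14: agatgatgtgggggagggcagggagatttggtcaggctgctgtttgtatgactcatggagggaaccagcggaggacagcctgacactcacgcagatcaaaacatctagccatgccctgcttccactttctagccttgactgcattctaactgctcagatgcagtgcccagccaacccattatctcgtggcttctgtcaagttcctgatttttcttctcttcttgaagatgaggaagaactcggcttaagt
The motif AGGAAGT, searched on both strands, occurs in P2ry12 and in neither of the other windows printed. Among the members with an entry it was found for Adora3, and it occurs in 7.69% of all 32851 promoter windows. It was chosen after the P2ry12 sequence had been read. The core of the interferon-stimulated response element, GAAA and GAAA parted by NN (2.98% of promoter windows), was found in none of these windows, nor in those of the other members with an entry. RefSeq windows matched 8 of the 10 genes, all but P2ry6 and Adora2a. A match or its absence describes letters in these windows and says nothing of binding.

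P2ry12 was lower in TAM-KO, while P2ry13 and P2ry14 did not pass the test. P2ry12 (70839), an ADP receptor known from platelets and microglia, had 15.1, 13.1, 12.8 and 12.5 FPKM in TAM-WT and 8.0, 10.2, 8.72 and 8.99 FPKM in TAM-KO. All TAM-KO values lay below all TAM-WT values, which was so for 5.41% of all genes, and the log2 fold change was -0.68 ± 0.09 (SE, adjusted p = 0.00753). In bulk RNA, fewer cells of a type and less RNA per cell cannot be told apart. P2ry13 (74191, chr3:59207892-59210882), a second ADP receptor, had 10.9, 10.7, 5.88 and 6.46 FPKM in TAM-WT and 5.97, 8.64, 6.64 and 5.90 FPKM in TAM-KO. TAM-WT replicates 1 and 2 stood above all other libraries, TAM-WT replicate 3 was the lowest of all 8, and TAM-WT replicate 4 lay among the TAM-KO values. Its log2 fold change was -0.42 ± 0.19 (SE, adjusted p = 0.169; interval -0.85 to 0.01).

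P2ry14 (140795, chr3:59114623-59153492), the receptor for UDP-glucose, had a positive fold change that did not pass the test. It had 10.5, 3.55, 5.12 and 8.45 FPKM in TAM-WT and 14.1, 14.6 and 9.14 FPKM in TAM-KO replicates 2, 3 and 4. A value for TAM-KO replicate 1, 7.14 FPKM, did not enter the test. It was taken from the table of the whole series, the authors' list of differentially expressed genes, on which P2ry14 thus stands. Replicates 2 and 3 of TAM-KO were above all TAM-WT libraries, and TAM-KO replicates 1 and 4 lay within the TAM-WT range. The log2 fold change was 0.76 ± 0.33 (SE, adjusted p = 0.163; interval 0.00 to 1.52), and it was 0.58 (adjusted p = 0.279) with TAM-KO replicate 1 filled in. Set against P2ry12 in the same library, P2ry14 had a ratio of 0.270 to 0.698 in TAM-WT and 0.893 to 1.68 in TAM-KO, a ratio chosen after the values were seen and not tested. The neighbor Gpr171 had 2.81, 1.15, 1.62 and 3.47 FPKM in TAM-WT and 3.46, 5.22, 5.22 and 3.09 FPKM in TAM-KO (log2 fold change 0.79 ± 0.32 SE, adjusted p = 0.129).

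**Figure D3:**
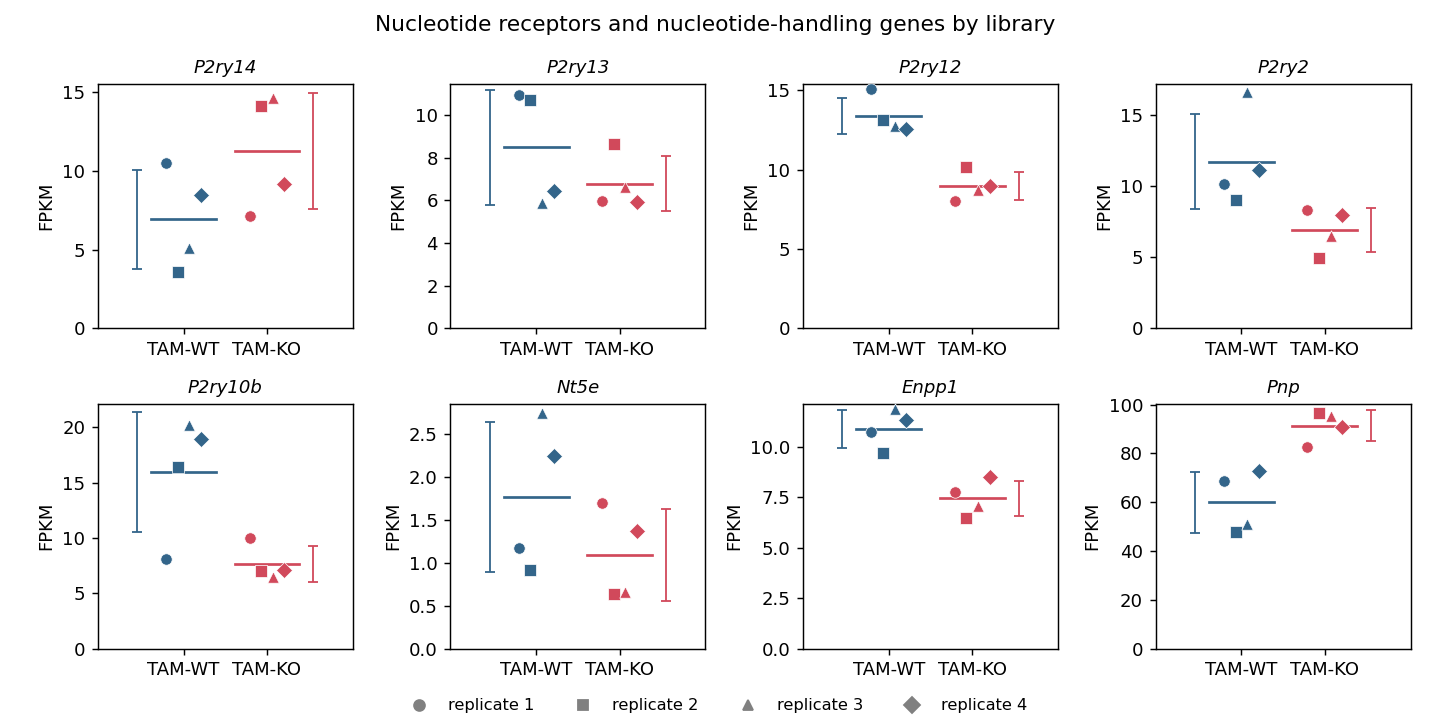
FPKM of 8 genes in each library, by genotype, with a bar at the group mean and an error bar of 1 SD beside it; each y axis starts at 0. The TAM-KO values of P2ry12, P2ry2 and Enpp1 lie below and those of Pnp above all TAM-WT values, while P2ry14, P2ry13, P2ry10b and Nt5e overlap.

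The libraries lowest for P2ry14 were also lowest for most interferon response genes. Of 14 such genes listed, 13 had values and 4 passed the test, all higher (4.58% of all genes were), with a median log2 fold change of 1.01. Their summed level was 747 to 1993 CPM in TAM-WT and 2842 to 4059 CPM in TAM-KO replicates 2 to 4. The most abundant were Cxcl10, a T cell chemokine (log2 fold change 0.92, adjusted p = 0.0324), and Irf7, a transcription factor of the type I interferon response (1.25, adjusted p = 0.0538). TAM-WT replicate 2, which was lowest for P2ry14, was also lowest for 12 of 13 of the genes, whereas TAM-WT replicate 1, highest for P2ry14, was highest for only 4 of 13. Among TAM-KO libraries, replicate 1 was lowest for P2ry14 and for 10 of 12, and replicate 3 was highest for P2ry14 and for 9 of 12. For most of these genes the value of TAM-KO replicate 1 came, as for P2ry14, from the table of the whole series. The full order of the libraries was that of P2ry14 for 4 of 13 genes in TAM-WT and 4 of 12 in TAM-KO. How often other genes were lowest or highest in these TAM-KO libraries is not given here. A link between P2ry14 and the interferon response genes was not tested. TAM-WT replicate 2 was also the lowest TAM-WT library for each other member except P2ry13. It had the lowest macrophage marker sum (11690 CPM) and the highest melanoma marker sum (12440 CPM) of TAM-WT. Its low values were thus not confined to P2ry14 and the interferon response genes. Markers of other cells differed as well. The 9 T cell markers with a value, led by Cd3g and Cd8b1, summed to 8.87 to 49.6 CPM in TAM-WT and 55.1 to 127 CPM in TAM-KO, with 1 of 9 called higher. Their fold changes were positive for 8 and negative for 1, Cd4 (log2 -0.29). The 5 monocyte markers, led by Plac8 and Ly6c2, summed to 234 to 543 CPM and 557 to 700 CPM, with 3 of 5 called higher. Over all genes 4.58% were called higher. The 7 NK markers, led by Gzmb and Prf1, summed to 0.755 to 25.2 and 19.7 to 76.4 CPM (1 of 3 tested called higher). The 7 neutrophil markers, led by Mmp8 and S100a8, summed to 67.0 to 189 and 43.3 to 77.2 CPM (1 of 4 tested called higher). No marker with a value was at 0 in all libraries of both groups. The part of these cells in the P2ry14, P2ry12 and other receptor values was not tested.

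**Figure D4:**
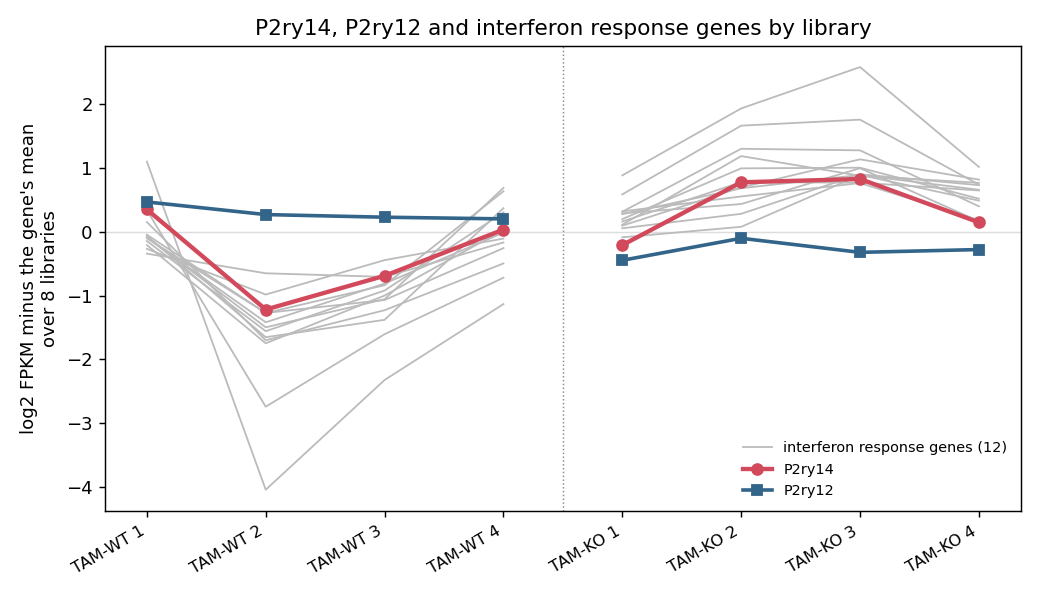
Log2 FPKM of P2ry14 (red), P2ry12 (blue) and 12 interferon response genes (grey) in each of the 8 libraries, each gene relative to its own mean over the libraries; lines join the values of a gene within a group and mark no order of the replicates. P2ry14 and most grey lines are lowest in TAM-WT replicate 2 and are above their mean in TAM-KO replicates 2, 3 and 4, whereas P2ry12 lies above its mean in TAM-WT and below it in TAM-KO.

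The adenosine receptors were low to moderate and did not pass the test. Adora2b (11541, chr11:62248984-62266452), the low-affinity receptor, was the highest of the family at 7.88, 5.67, 7.28 and 9.09 FPKM in TAM-WT and 7.90, 7.18 and 8.64 FPKM in TAM-KO. The TAM-KO values lay inside the TAM-WT range, with a log2 fold change of -0.03 ± 0.18 (SE, adjusted p = 0.942; interval -0.43 to 0.38). Adora2a (11540, chr10:75316877-75334792), the high-affinity receptor, had 1.18, 0.64, 1.15 and 1.18 FPKM in TAM-WT and 1.09, 1.54 and 0.77 FPKM in TAM-KO. TAM-WT replicate 2 stood apart below the other TAM-WT libraries, and the fold change was 0.00 ± 0.32 (log2, SE, adjusted p = 0.997; interval -0.72 to 0.73). Adora3 (11542, chr3:105904421-105908928), which lowers cyclic AMP, had 1.11, 0.55, 1.11 and 0.60 FPKM in TAM-WT and 0.84, 0.95 and 1.19 FPKM in TAM-KO. The groups overlapped, and its log2 fold change was 0.13 ± 0.33 (SE, adjusted p = 0.82; interval -0.63 to 0.89). Adora2a rested on 25 to 58 and Adora3 on 20 to 43 expected counts per library. Adora3 shares 779 of 3729 exon bases with Tmigd3 on the same strand, so reads of the pair may be split, and Tmigd3 was listed at 0 to 0.08 FPKM. Adora1 was at 0 to 0.01 FPKM.

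Outside the 10 genes, some receptors and enzymes listed with the pathway passed the test. Of 37 other purinergic genes listed, 26 were tested and 5 passed, 1 higher and 4 lower (12 at an unadjusted p below 0.05), with a median log2 fold change of -0.04. Over all genes tested, 9.81% passed and 30.7% had an unadjusted p below 0.05. Of the P2Y receptors on this list, 3 of 5 tested were lower (5.24% of all genes were), beside 0 of 3 among the members. P2ry10 and P2ry10b entered this count by name alone, and whether they bind nucleotides was not examined. P2ry12 is given above. P2ry2 (chr7:100996568-101012053), the receptor for ATP and UTP and a neighbor of P2ry6 at 21.1 kb, had 10.1, 9.02, 16.6 and 11.1 FPKM in TAM-WT and 8.30, 4.93, 6.49 and 7.99 FPKM in TAM-KO. All TAM-KO values lay below all TAM-WT values (5.41% of all genes), and its log2 fold change was -0.88 ± 0.24 (SE, adjusted p = 0.048). P2ry10b, grouped with the P2Y receptors by name and most abundant among them in this list, had 8.13, 16.4, 20.2 and 19.0 FPKM in TAM-WT and 9.98, 7.02, 6.46 and 7.08 FPKM in TAM-KO. TAM-WT replicate 1 lay among the TAM-KO values, and the log2 fold change was -1.18 ± 0.28 (SE, adjusted p = 0.0326). Whether reads of P2ry10b were shared with P2ry10 (log2 fold change 0.20, adjusted p = 0.728) was not tested, so the value of P2ry10b is uncertain. P2ry1, an ADP receptor, was at -0.93 (adjusted p = 0.0711).

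Among the enzymes, Enpp1 was lower and Pnp higher. Enpp1, which cuts ATP to AMP and pyrophosphate at the cell surface, had 10.7, 9.70, 11.9 and 11.4 FPKM in TAM-WT and 7.76, 6.5, 7.06 and 8.51 FPKM in TAM-KO (log2 fold change -0.66 ± 0.12 SE, adjusted p = 0.0194). Pnp, purine nucleoside phosphorylase, which breaks down inosine, had 68.6, 47.7, 50.9 and 72.8 FPKM in TAM-WT and 82.5, 96.7, 95.5 and 90.9 FPKM in TAM-KO (0.50 ± 0.14 SE, adjusted p = 0.0499). The groups were separate for both genes in FPKM. Over all genes, 5.41% were separate with TAM-KO lower, as Enpp1 was, and 13.5% with TAM-KO higher, as Pnp was. Enpp1 was the single call among 2 ectonucleotidases tested and Pnp the single call among 8 genes of adenosine transport and breakdown. No call was made among 4 further NTPDases, 4 genes of ATP release and 2 of the extracellular NAD route. Their most abundant genes were Entpd6 (log2 fold change 0.37, adjusted p = 0.0622), the channel gene Panx1 (-0.00, adjusted p = 0.989) and Bst1 (0.37, adjusted p = 0.356). P2ry12 passed in all 8 fits that left out a library, Enpp1 in 5, P2ry10b in 3, Pnp in 2 and P2ry2 in 1 of 8. Without TAM-WT replicate 3, or TAM-KO replicate 2 or 3, P2ry12 passed and the other 4 did not. Under 8 other settings, P2ry12 and Enpp1 passed in 8, P2ry10b in 7, Pnp in 4 and P2ry2 in 3.

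Among genes that act after the adenosine receptors, 2 of 19 cyclic AMP genes tested passed, 1 higher and 1 lower (9 at an unadjusted p below 0.05; median log2 fold change -0.00). This share of calls was near the 9.81% of all genes. Rapgef3, an exchange factor switched on by cyclic AMP, had 8.38, 10.1, 5.58 and 5.16 FPKM in TAM-WT and 10.9, 14.1, 13.4 and 12.4 FPKM in TAM-KO (0.70 ± 0.17 SE, adjusted p = 0.0385). Prkacb, a catalytic subunit of protein kinase A, had 60.6, 59.0, 56.7 and 55.02 FPKM in TAM-WT and 50.7, 41.1, 43.1 and 51.7 FPKM in TAM-KO (-0.42 ± 0.09 SE, adjusted p = 0.031). The groups were separate for both in FPKM, which held upward for 13.5% and downward for 5.41% of all genes. Prkacb passed in 3 and Rapgef3 in 2 of 8 fits that left out a library. Neither passed without TAM-WT replicate 3 or 4 or without TAM-KO replicate 2 or 3.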

How the data were processed

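Total RNA of sorted TAMs was sequenced on a BGISEQ-500. Per the labels, the authors' processing used HISAT2 2.0.4, Bowtie2 2.2.5 and RSEM 1.2.12 on GRCm38.p6. The deposited tables hold RSEM expected counts and FPKM per gene. A table of the whole series, the authors' list of differentially expressed genes, adds their own fold changes and p-values, which were not used. Only genes on that list could be filled for TAM-KO replicate 1, which was so for 1188 of the 4214 genes without its value. In the table of TAM-KO replicate 1, 5311 genes were not listed and 629 misplaced values and 1 broken line were not used. Expected counts were rounded and tested with edgeR 4.0.16 (quasi-likelihood, TMM, default filter), on 8 libraries where TAM-KO replicate 1 had a value and on 7 otherwise, with one Benjamini-Hochberg adjustment. Fold changes were fitted on counts and can differ in sign from FPKM means near 0. Alternatives used DESeq2 1.42.0, limma 3.58.1 on log2(FPKM + 1) and log2(FPKM + 0.1), other filters and factors, a replicate block, TAM-KO replicate 1 filled from the series table (1188 genes) and each library left out. The fit was tested on simulated data. The simulation used 8 complete libraries and the same spread for all genes, so it did not cover the fits on 7 libraries. Genes named were the members, other pathway genes that passed, the most abundant gene of each role, genes overlapping a member and the 2 leading genes of marker lists shown. Uncalled list genes beyond this rule and Gpr171 were named after their values were seen. The members and lists were chosen with earlier results of these data known. Promoters and gene positions came from RefSeq and exon overlaps from GENCODE M21.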

Additional observations from a re-analysis of the deposited data

Results flagged for a closer look

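Adora2a had 0.64 FPKM in TAM-WT replicate 2, far below the other TAM-WT libraries at 1.15 to 1.18 FPKM, and its gap to the nearest library was 0.944 of the range of the group. Groups of 4 libraries were examined 30 times, and chance marks about 1 in 20 of them, or 1.5 here. Within TAM-WT, the same library was lowest for every member except P2ry13 and for 12 of 13 interferon response genes. Its Adora2a value rests on 25 expected counts.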

How the results depend on the processing

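The members gave 0 calls in every alternative run: 160 values, smallest adjusted p 0.0897, for Nt5e without TAM-WT replicate 2. Of these values 20 changed sign, in 5 genes near 0, and none exceeded 0.30 in size. P2rx7 was 0.042, 0.044 and 0.059 with limma at a pseudocount of 1, of 0.1 and with the replicate block. P2ry6 was 0.082 and 0.083 in the limma fits. Adora2b was 0.084 and 0.095 in limma and 0.0007 with the block. Adora2a was -0.0024 with no filter on low counts. With a library left out, P2rx7 ranged from -0.095 to 0.059, P2ry6 from -0.11 to 0.038, Adora2a from -0.30 to 0.21, Adora2b from -0.15 to 0.10 and Adora3 from -0.046 to 0.33. Nt5e ranged from -1.11 to -0.48 and P2ry14 from 0.53 to 1.0.

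Calls among other purinergic genes moved from 5 to 3 with DESeq2 size factors, with at least 10 counts in every library and with TAM-KO replicate 1 filled in, and to 9 with DESeq2. DESeq2 and the replicate block each gave 1 inflammasome call, and DESeq2 gave 5 cyclic AMP calls and 2253 calls over all genes. With a library left out, calls ranged from 1 to 7 for other purinergic genes, 0 to 2 for inflammasome genes, 0 to 5 for cyclic AMP genes, 0 to 0 for the members and 77 (without TAM-KO replicate 2 or 3) to 2755 (without TAM-WT replicate 2) for all genes. The cause was not tested. The limma fits moved the median of all genes to 0.09 and 0.11 on the log2 scale and the share of calls that were higher from 46.6% to 69.2% and 68.4%.

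Replicate numbers are shared by the groups, and the labels do not say whether they pair the samples. Deviations of same-numbered libraries correlated at -0.378 to 0.276, and 1 of 8 libraries correlated best with its own number. These correlations rest on 4 pairs and cannot decide whether the samples were paired. With the replicate block, 1080 genes were called, P2ry10b (adjusted p = 0.07) and Pnp (0.0595) did not pass, and Il1b and P2ry1 did. Nt5e, Adora2a and Adora3 had the fewest counts, and counting error and spread between libraries were not separated.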
